A study of Saccharomyces cerevisiae with 6 samples.

Results

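The 60 genes described here encode assembly factors of the large (60S) ribosomal subunit of Saccharomyces cerevisiae, proteins that build the subunit in the nucleolus, nucleus and cytoplasm and are not part of the finished ribosome. They were chosen by gene name, after the gene IDs of the deposited RNA-Seq table had been matched to the RefSeq annotation of the R64 genome, and 60 of 60 were found among the 5793 features of that table. MDN1 was matched through a synonym, because the annotation calls it REA1. The RNA-Seq libraries came from strain BJ5464, a laboratory strain that carries a deletion of URA3 according to the labels. Polyadenylated RNA was sequenced from 3 heat shock libraries (37 °C for 20 min) and 3 optimal growth libraries (28 °C, rich YPD medium). All 6 libraries were aliquots of a single culture that was divided before the heat treatment, so they hold no variation between cultures. The value used for each gene is the authors' log2 mean CPM (CPM is the read count of a gene relative to the size of its library, here averaged over all 6 libraries and thus over both temperatures). The table carries no value for a single library. No level below therefore has an SD or an n, the depth of each library is unknown here, and heat shock was not compared with optimal growth. Differences between genes are descriptions of 1 pooled mean each, and the order of genes with close values is not established.

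Assembly of the 60S subunit starts on the newly made precursor rRNA in the nucleolus, where helicases and scaffold proteins help the rRNA to fold and the internal spacers to be cut. The particle then takes up the 5S rRNA with its ribosomal proteins, is remodelled by GTPases and by large AAA-type ATPases, leaves through the nuclear pore and sheds its last assembly factors in the cytoplasm. In budding yeast the genes of this pathway are transcribed with those for rRNA and ribosomal proteins during growth. Many of their promoters carry a pair of short sequence elements. The PAC element, with the core GATGAG, is bound by the repressors Dot6 and Tod6, and the RRPE element, with the core AAAAATTTT, is bound by Stb3. Both elements were originally described in promoters of ribosome synthesis genes, so finding them near members of this pathway is not independent of how they were defined.

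The following sequences are shown because they let the arrangement of these cores be read directly in the most highly expressed members. They span 250 bases before to 50 bases after the annotated start codon, 5′ to 3′ on the strand of the gene, in R64 coordinates with the RefSeq starts. Capitals mark each match to GATGAG or AAAAATTTT, or to its reverse complement. The genes are the 6 with the highest level per kb of coding sequence among members whose window held both cores.
RLP24 (chrXII:166287-166586, plus strand): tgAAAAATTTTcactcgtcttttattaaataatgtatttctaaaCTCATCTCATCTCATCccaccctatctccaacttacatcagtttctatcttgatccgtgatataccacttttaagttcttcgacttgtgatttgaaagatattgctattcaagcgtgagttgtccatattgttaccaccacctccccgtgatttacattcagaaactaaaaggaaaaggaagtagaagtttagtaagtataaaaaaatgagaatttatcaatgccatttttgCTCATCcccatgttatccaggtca
MRT4 (chrXI:425992-426291, plus strand): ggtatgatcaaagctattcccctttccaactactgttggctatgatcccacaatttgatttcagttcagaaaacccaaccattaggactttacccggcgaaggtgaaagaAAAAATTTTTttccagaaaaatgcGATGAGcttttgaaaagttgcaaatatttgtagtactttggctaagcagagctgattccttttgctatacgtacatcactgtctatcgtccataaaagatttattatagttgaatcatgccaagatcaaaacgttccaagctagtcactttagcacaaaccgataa
TIF6 (chrXVI:593020-593319, minus strand): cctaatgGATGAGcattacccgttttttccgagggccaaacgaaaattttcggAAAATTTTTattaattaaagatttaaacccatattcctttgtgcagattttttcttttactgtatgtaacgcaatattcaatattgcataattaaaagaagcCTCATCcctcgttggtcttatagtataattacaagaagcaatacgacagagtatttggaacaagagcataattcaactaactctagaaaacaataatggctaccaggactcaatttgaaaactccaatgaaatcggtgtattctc
ALB1 (chrX:189466-189765, plus strand): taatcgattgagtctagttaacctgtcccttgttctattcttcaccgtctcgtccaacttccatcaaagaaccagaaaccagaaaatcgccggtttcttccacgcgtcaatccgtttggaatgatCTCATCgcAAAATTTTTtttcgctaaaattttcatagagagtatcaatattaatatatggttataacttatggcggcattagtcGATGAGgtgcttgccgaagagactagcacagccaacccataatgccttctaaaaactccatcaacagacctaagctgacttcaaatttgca
RLP7 (chrXIV:627093-627392, minus strand): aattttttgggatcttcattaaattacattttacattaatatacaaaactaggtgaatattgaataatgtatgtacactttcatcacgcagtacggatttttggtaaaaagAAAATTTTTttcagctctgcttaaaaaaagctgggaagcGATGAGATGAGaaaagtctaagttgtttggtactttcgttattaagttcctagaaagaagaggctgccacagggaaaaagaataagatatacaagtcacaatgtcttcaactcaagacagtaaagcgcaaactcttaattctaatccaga
NOP15 (chrXIV:418439-418738, minus strand): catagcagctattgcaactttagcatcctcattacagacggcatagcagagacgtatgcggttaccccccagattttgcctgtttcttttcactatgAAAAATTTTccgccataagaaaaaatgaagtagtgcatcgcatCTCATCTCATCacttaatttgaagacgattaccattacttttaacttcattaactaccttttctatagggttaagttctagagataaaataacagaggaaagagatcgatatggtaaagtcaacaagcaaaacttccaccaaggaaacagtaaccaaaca
RLP24 carried 3 overlapping PAC cores in a row far upstream, and RLP7 and NOP15 each carried a pair that overlapped in the same way. MRT4 had an RRPE core on both strands at once, because 5 A bases followed by 5 T bases read the same in either direction. In ALB1 and TIF6 the nearest pair had the PAC core farther from the start than the RRPE core, the less common order among members.

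To show the closest pairing of the cores at each step of assembly, 1 stretch of 46 bases is given per step, from the member with the shortest distance between an RRPE core and a PAC core nearer to the start. This choice was made after the values had been seen. Capitals again mark the cores.
DBP3 (chrVII:361975-362020, minus strand): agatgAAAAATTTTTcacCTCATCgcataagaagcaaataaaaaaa
NOP7 (chrVII:695270-695315, plus strand): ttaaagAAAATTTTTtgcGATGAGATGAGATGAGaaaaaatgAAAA
MAK16 (chrI:101241-101286, minus strand): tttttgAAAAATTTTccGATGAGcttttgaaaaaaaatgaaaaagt
RRS1 (chrXV:868198-868243, plus strand): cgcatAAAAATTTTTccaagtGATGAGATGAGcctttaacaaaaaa
NOP2 (chrXIV:510391-510436, plus strand): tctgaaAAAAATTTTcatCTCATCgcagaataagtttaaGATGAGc
RIX7 (chrXII:73246-73291, minus strand): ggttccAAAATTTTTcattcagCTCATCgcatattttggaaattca
NMD3 (chrVIII:443663-443708, plus strand): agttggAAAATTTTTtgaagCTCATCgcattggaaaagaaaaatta
The order of the cores and their short spacing, 11 to 16 bases from first base to first base, were set by this choice. In NOP7 the last 4 capitals are the beginning of another RRPE core, at -105 from the start, which follows the PAC cores and runs past the end of the stretch. The PAC core stood on the strand of the gene in MAK16, NOP7 and RRS1. It stood on the opposite strand in DBP3, RIX7 and NMD3. NOP2 had one on each strand. The opposite-strand copies in DBP3, NOP2, RIX7 and NMD3 were each followed by the bases gc.

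Transcripts of the assembly factors were more abundant than those of most yeast genes. The median log2 mean CPM was 7.44 over the 60 members, with a range of 6.32 to 8.96, and 6.26 over all 5793 features. Of the 60 members, 60 lay above the median of all features and 34 above its percentile 75. Together they held 1.12% of the summed mean CPM, close to their share of the features by number (60 of 5793). Because long transcripts collect more reads, levels of different genes are compared below per kb of coding length. On that scale, log2 mean CPM per kb, the members had a median of 7.04 (quartiles 6.37 and 7.47), against 5.87 (quartiles 4.92 and 6.99) for the 5646 other genes with a coding length. By that measure 51 of 60 members were above the median of all genes, 31 were above percentile 75 and 3 were at or below percentile 25. The members were longer than other genes, with a median coding length of 1533 bp against 1218 bp. As a check of the strain label, URA3 was listed at a log2 mean CPM of 7.10, so reads were assigned to the locus that the labels give as deleted.

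**Figure D1:**
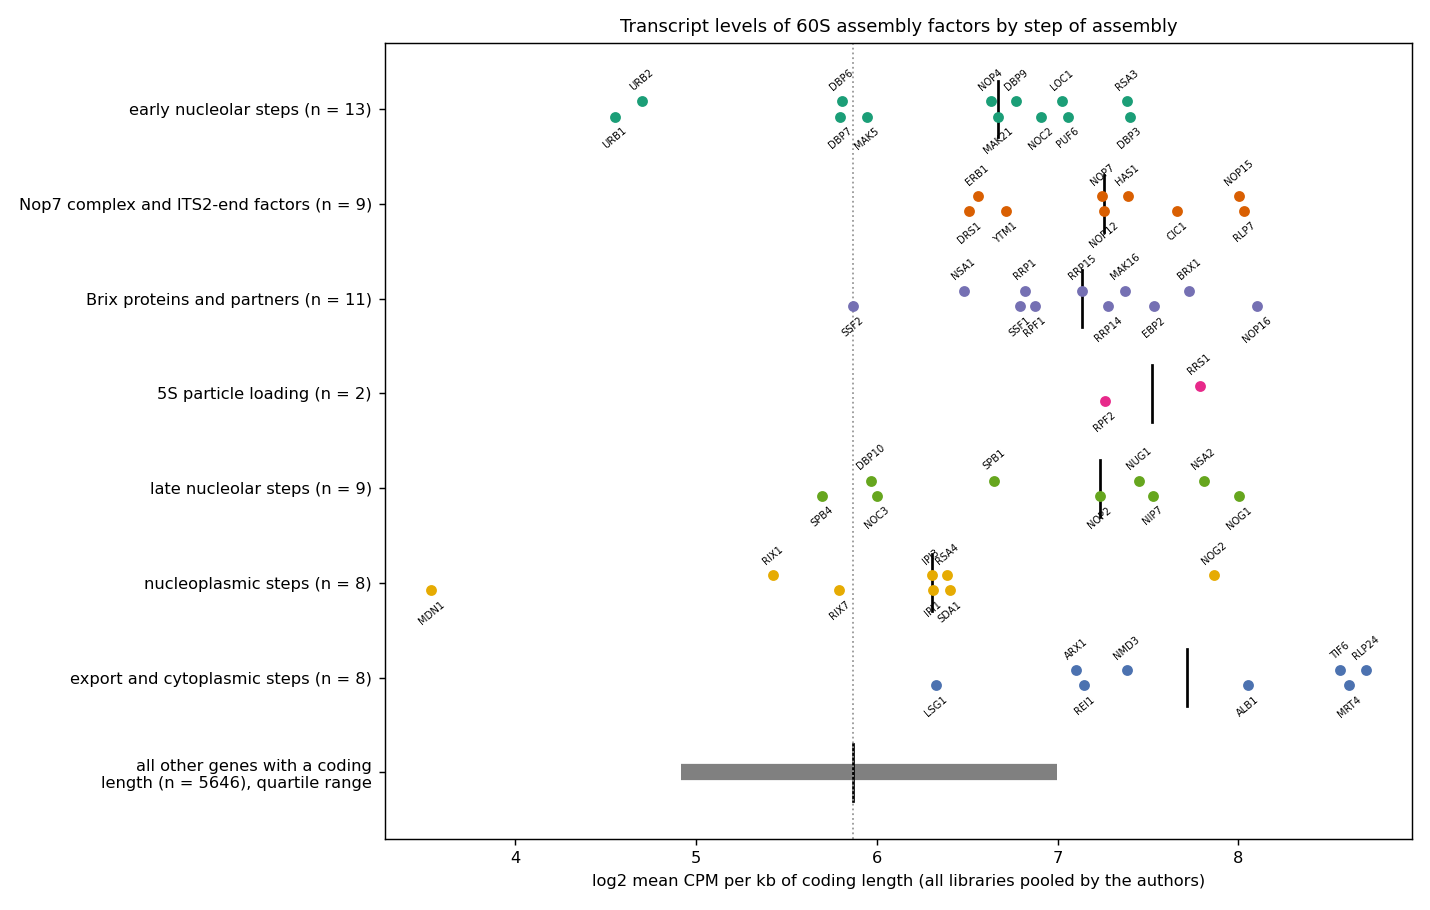
Each point is 1 gene, placed by its log2 mean CPM per kb of coding length (horizontal axis) and by the step of assembly it was listed under (vertical axis). Black lines are medians, the grey bar spans the quartiles of the 5646 other genes, and the dotted line is their median of 5.87. The export and cytoplasmic factors reached the highest level (RLP24, 8.70), and MDN1 in the nucleoplasm stood far below the other members at 3.54.

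The members differed widely in level per kb, with 35.9-fold between the highest and the lowest. The 5 highest were RLP24, MRT4, TIF6, NOP16 and ALB1, and 4 of these 5, all but NOP16, were listed here as export and cytoplasmic factors. RLP24 (YLR009W, chrXII:166537-167136, plus strand), a protein that holds the place of ribosomal protein Rpl24 on the particle, had 417 CPM per kb. MRT4 (YKL009W, chrXI:426242-426952, plus strand), which holds the place of the stalk protein P0, had 391 CPM per kb. TIF6 (YPR016C, chrXVI:592332-593069, minus strand), the yeast eIF6 that keeps the subunits apart until the 60S subunit is mature, had 377 CPM per kb. NOP16 (YER002W, chrV:156803-157498, plus strand), a nucleolar protein of early 60S particles, followed with 275 CPM per kb, and ALB1 (YJL122W, chrX:189716-190243, plus strand), the partner of the export factor Arx1, with 265 CPM per kb. All 5 are single-exon genes with short coding sequences.

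The 5 lowest were MDN1, URB1, URB2, RIX1 and SPB4, which include the longest members. MDN1 (YLR106C, chrXII:349006-363738, minus strand) encodes a very large AAA-type ATPase that pulls assembly factors off the particle, and had 11.6 CPM per kb over 14733 bp. URB1 (YKL014C, chrXI:411619-416913, minus strand) and URB2 (YJR041C, chrX:510239-513763, minus strand), both scaffold proteins of the Npa1 complex on the earliest particles, had 23.5 and 26.0 CPM per kb. RIX1 (YHR197W, chrVIII:493896-496187, plus strand), which gives its name to a complex of nucleoplasmic particles, had 43.0 CPM per kb. SPB4 (YFL002C, chrVI:145114-146934, minus strand), a DEAD-box helicase of late nucleolar particles, had 52.0 CPM per kb. Without scaling to length MDN1 was not low: its log2 mean CPM of 7.42 was close to the members' median of 7.44.

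Among the 13 factors of the early nucleolar steps the median was 6.67 log2 mean CPM per kb. The highest were the helicase gene DBP3 (7.40) and RSA3 (7.38), which codes for a small subunit of the Npa1 complex. PUF6 (7.06) and LOC1 (7.02), whose products bind RNA and are also known from the localisation of ASH1 mRNA, came next. NOC2 (6.91) and MAK21 (6.67, the Noc1 gene) encode partners in 1 complex and lay close together. The RNA-binding protein gene NOP4 had 6.63. The helicase genes DBP9 (6.77), MAK5 (5.95), DBP6 (5.80) and DBP7 (5.80) spread over about 1 log2 unit, and URB2 (4.70) and URB1 (4.55) closed the list.

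The 9 factors of the Nop7 complex and of the end of the second internal spacer (ITS2) had a median of 7.26 and the narrowest range of the larger groups, 6.51 to 8.03. RLP7 (8.03), NOP15 (8.01) and CIC1 (7.66), whose products sit together on the ITS2 structure of the particle, were the 3 highest. HAS1 (7.39), a DEAD-box helicase gene, followed, then NOP12 (7.26), which codes for an RNA-binding protein that aids the folding of the rRNA. The 3 genes of the Nop7 complex were close to each other, with 7.25 for NOP7, 6.71 for YTM1 and 6.56 for ERB1. DRS1, another helicase gene, had 6.51.

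The 11 Brix-domain proteins and their partners had a median of 7.14. NOP16 (8.10) led the group. BRX1 (7.73) and EBP2 (7.53), which encode a Brix protein and its binding partner, differed by 0.19 log2 units. In the Nsa1 module, which shapes the solvent side of the particle, MAK16 (7.37), RPF1 (6.88) and RRP1 (6.82) were above NSA1 (6.48). RRP14 (7.28) and RRP15 (7.14), partners of the Ssf1 protein, were above SSF1 (6.79) and SSF2 (5.87).

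For the loading of the 5S rRNA, RRS1 had 7.78 and RPF2, a further Brix protein gene, had 7.26. Their products form 1 complex that brings the 5S rRNA with the ribosomal proteins Rpl5 and Rpl11 to the particle. The median of the pair was 7.52.

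The 9 late nucleolar factors had a median of 7.23. NOG1 (YPL093W, chrXVI:370978-372921, plus strand), a GTPase gene, was the highest with 8.004 per kb, and its log2 mean CPM of 8.96 was the highest of all 60 members before scaling. NSA2 (7.81) encodes a factor placed near the peptidyl transferase centre, and the NUG1 GTPase gene had 7.45. NIP7 (7.53) and NOP2 (7.23), a binding pair of which Nop2 is an rRNA methyltransferase, differed by 0.29 log2 units. SPB1 (6.65) codes for another rRNA methyltransferase. NOC3 (5.998), the partner of Noc2 on later particles, and the helicase genes DBP10 (5.97) and SPB4 (5.70) were the lowest.

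The 8 nucleoplasmic factors had the lowest median, 6.31. NOG2 (YNR053C, chrXIV:721120-723112, minus strand), the GTPase gene whose product occupies the site later taken by the export adapter Nmd3, stood apart at 7.87. It was the only member with an intron (2 coding exons), and the annotation places the small nucleolar RNA gene SNR191 within it, so reads of both could be counted for it. SDA1 (6.40) and RSA4 (6.39) encode factors that join the rotation of the 5S particle, and Rsa4 is a substrate of Mdn1. The Rix1 complex genes had 6.31 for IPI1, 6.30 for IPI3 and 5.42 for RIX1. The AAA-type ATPase genes were RIX7 (5.79), whose product removes Nsa1, and MDN1 (3.54).

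The 8 genes listed here as export and cytoplasmic factors had the highest median of all 7 groups, 7.72. The groups were made for this description, with each gene under a single step. They do not show when a product joins the particle, so the median does not rank early against late factors. RLP24 (8.70), MRT4 (8.61) and TIF6 (8.56) were within 0.2 log2 units of each other, and ALB1 had 8.05. NMD3 (7.38), which encodes the adapter for the exportin Crm1, REI1 (7.15), whose product helps to release Arx1 in the cytoplasm, and ARX1 (7.10) itself formed a middle set. LSG1, the gene for the cytoplasmic GTPase that frees Nmd3, was the lowest at 6.32. REI1 overlaps the gene SLM6 in the annotation, and it was not given whether the counting used the strand.

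Genes for proteins that resemble a ribosomal protein were set beside the gene they resemble. RLP7 had 8.03 log2 mean CPM per kb, against 10.32 for RPL7A, a 4.87-fold lower level, and against 8.35 for RPL7B, a difference of -0.32. RLP24 had 8.70, against 10.80 for RPL24A and 10.84 for RPL24B, 4.27-fold and 4.39-fold lower. MRT4 had 8.61, against 11.09 for the P0 gene RPP0, 5.55-fold lower. RLP7, RLP24 and MRT4 were thus lower than the ribosomal protein genes in 5 of 5 pairings, by very little for RPL7B. Values of the A and B copies are uncertain, because it was not given how reads that match both copies were treated.

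SSF1 (YHR066W, chrVIII:229335-230696, plus strand) and SSF2 (YDR312W, chrIV:1087581-1088942, plus strand) encode near-identical Brix proteins. SSF1 had 6.79 log2 mean CPM per kb and SSF2 had 5.87, a 1.90-fold difference. They were the only members with 50-base stretches of the gene found elsewhere in the genome, 4.04% of the stretches in each gene, and the other 58 members had 0. Reads could therefore be exchanged between SSF1 and SSF2 over a small part of their length. Each of the remaining members can be told apart from the rest of the genome at that word length.

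Members of 1 complex were not always at like levels. The Npa1 complex had the widest spread, with RSA3 at 7.38 and URB1 at 4.55, a 7.12-fold difference per kb. This gap depends on scaling to coding length, 663 bp for RSA3 and 5295 bp for URB1. Before scaling, the log2 mean CPM of URB1 (6.96) was above that of RSA3 (6.79). NOP8, which encodes a further subunit of that complex and is not among the 60, had 5.73. The spread was 1.41 log2 units among SSF1, SSF2, RRP14 and RRP15. It was 0.91 among NOC2, MAK21 and NOC3, 0.89 in the Nsa1 module, 0.88 in the Rix1 complex and 0.69 in the Nop7 complex. ALB1 and ARX1 differed by 0.95 and RRS1 and RPF2 by 0.52. Among enzymes, the 9 DEAD-box helicase genes had a median of 5.97, with DBP3 (7.40) 3.25-fold above SPB4 (5.70). The 4 GTPase genes had a median of 7.66, with NOG1 3.20-fold above LSG1.

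Level per kb went down with length among the members. The rank correlation of coding length with log2 mean CPM per kb was -0.73 over the 60 members, and -0.68 over 57 members without MDN1, URB1 and URB2. Over all 5706 protein-coding genes it was -0.32. Coding length stands in the denominator of the per-kb value, so the measures share a term. Before that scaling the rank correlation of length with log2 mean CPM was 0.14 over the members and 0.24 over all protein-coding genes. These are descriptions across genes, which are not replicates, and all of them come from the same pooled libraries.

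**Figure D2:**
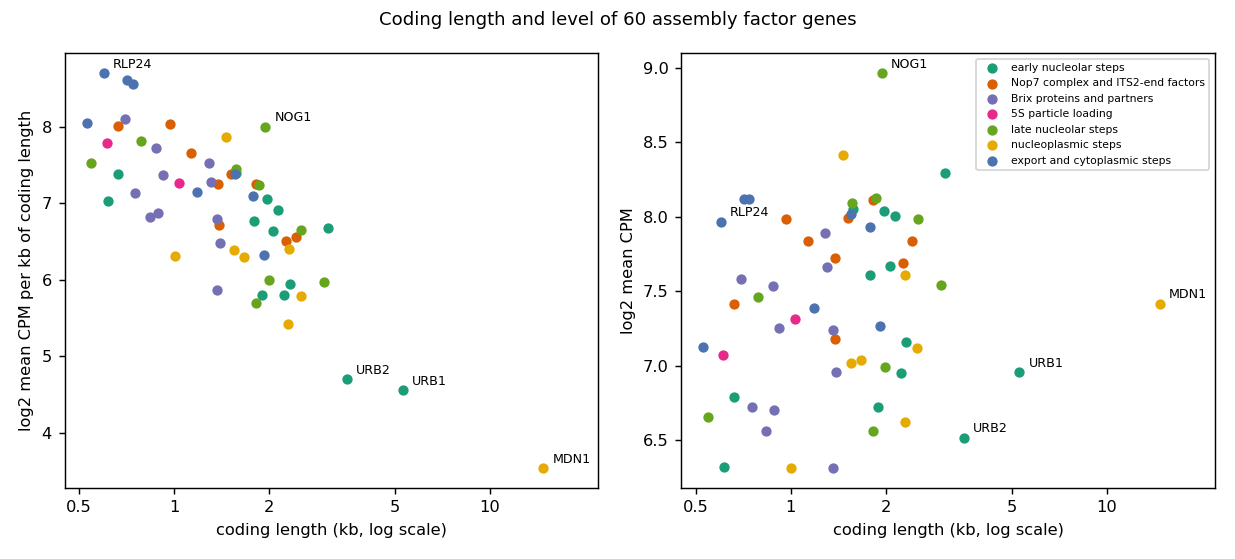
Each point is 1 member, with coding length in kb on a log axis, log2 mean CPM per kb in the left panel and log2 mean CPM in the right panel, coloured by step of assembly. The 3 longest genes (MDN1, URB1, URB2) are the 3 lowest per kb on the left, whereas on the right MDN1, at 7.42, sits among the other members.

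The PAC core GATGAG was found on either strand in the windows of 56 of 60 members (93.3%), against 1135 of 5706 windows of all protein-coding genes (19.9%). The RRPE core AAAAATTTT was found in 42 of 60 members (70.0%), against 7.26% of all windows. Both cores occurred in 38 members (63.3%) and in 3.75% of all windows. Every one of the 60 members had at least 1 of the cores, while 76.6% of all windows had neither. The members without a PAC core were SPB1, NSA1, IPI1 and RIX1, and each of these had an RRPE core. A match is a run of letters and was not tested for binding. The members' upstream sequence had a median GC content of 32.0%, against 34.8% for all windows.

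The cores were counted at each step of assembly, with no test of the difference between steps. PAC was in 13 of 13 early nucleolar genes, 9 of 9 of the Nop7 and ITS2 group, 10 of 11 Brix genes and partners and 2 of 2 5S genes. It was in 8 of 9 late nucleolar, 6 of 8 nucleoplasmic and 8 of 8 export and cytoplasmic genes. RRPE was in 5 of 13 early nucleolar genes, the lowest share of any group, and in 8 of 9 of the Nop7 and ITS2 group. It was in 7 of 11 Brix genes and partners, 2 of 2 5S genes, 6 of 9 late nucleolar, 7 of 8 nucleoplasmic and 7 of 8 export and cytoplasmic genes. By complex, the 4 genes of the Npa1 complex among the members (URB1, URB2, RSA3, DBP6) had 4 PAC cores and 0 RRPE cores, whereas NOP8 had both. In the Nop7 complex 3 of 3 genes had both. In the Rix1 complex 3 of 3 had RRPE and 1 of 3, IPI3, had PAC, and its match lay inside the coding sequence.

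The cores were more tightly placed than in other windows, at similar medians. The 95 PAC matches of the members had a median position of -119 from the start codon (quartiles -139.5 and -97.5). In all other windows the PAC median was -109 (quartiles -175 and -58). Of the members' PAC matches 82.1% lay between -200 and -50, against 60.7% in all other windows. Overlapping PAC cores, described below, count here as separate matches and were more frequent in the members. They weigh on the members' quartiles and share, and no comparison by site was made. The 57 RRPE matches had a median position of -141 (quartiles -164 and -131), against -146 elsewhere (quartiles -184 and -114). In that interval lay 94.7% of them, against 77.8% elsewhere. The orientation of PAC was mixed, with 52 matches on the strand of the gene and 43 on the opposite strand. For RRPE the counts were 29 and 28, but this split cannot show an orientation. Where a run of A bases meets a run of T bases of like length, as in MRT4 (-140 and -139), the same site matches on both strands. The even split is thus partly set by the letters of the core, and there are fewer RRPE sites than the 57 matches. At DBP7, REI1 and RRP14 a PAC match overlapped the start codon itself, and each of these genes had another match upstream.

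Where both cores were present they were close together and mostly in 1 order. In the 38 members with both, the nearest pair was 18 bases apart at the median (range 8 to 153), and the RRPE core was farther from the start in 32 and the PAC core in 6. Pairs within 50 bases were found in 35 members (58.3%), against 3.10% of all windows, most of which lacked a core. Among windows with both cores, 35 of 38 members had such a pair, and so did 142 of 176 other windows. Close spacing was thus common outside the members as well. The RRPE core was the farther one in 29 of these 35 (82.9%), against 62.0% of such pairs in all other windows. Those other windows include the 40S assembly genes, where 34 of 40 close pairs (85%) had this order, so it was not particular to the members. Only 177 of the 5706 windows held a pair within 50 bases, and 81 of the 177 (45.8%) belonged to this set or to the other 60S and 40S assembly lists.

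Overlapping PAC cores were common among the members. Because GATGAG begins and ends so that a copy can start 5 bases after the last, tandem repeats share a base, as in GATGAGATGAG of RLP7. Such repeats were found in 17 members (28.3%) and in 1.31% of all windows. Of the 56 members with a PAC core, 26 had 1 match, 23 had 2 and 7 had 3 or more. RLP24 and DBP9 had the most, with 4 each. These 56 members held 95 matches, and the 1079 other windows with the core held 1254.

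**Figure D3:**
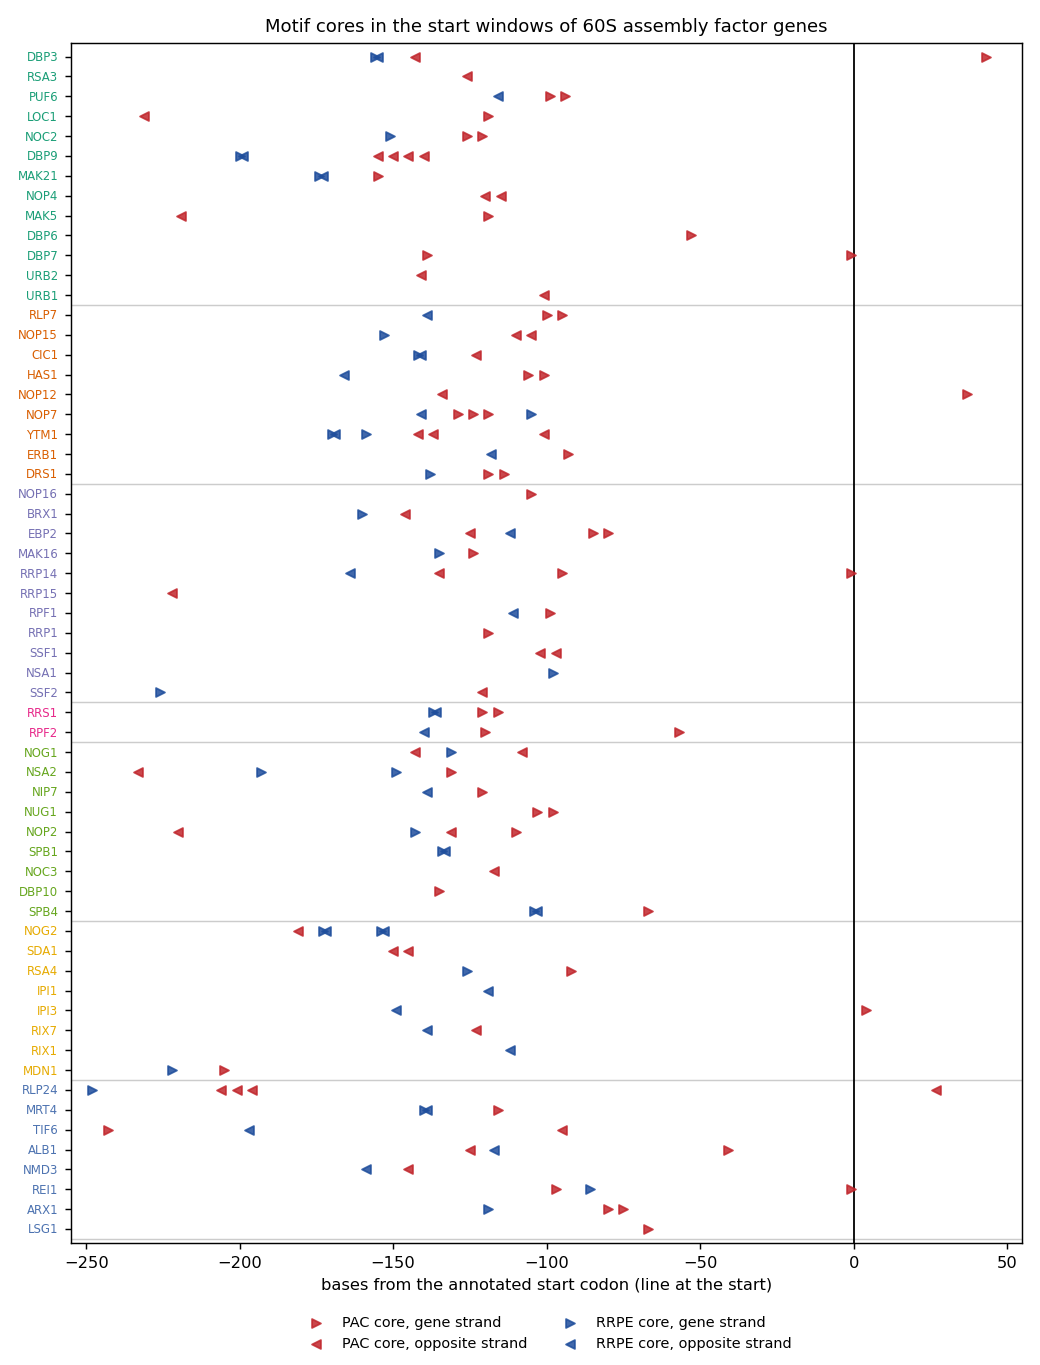
Each line is 1 member, grouped by step of assembly as coloured, and each arrowhead is 1 core at its distance in bases from the annotated start codon, pointing right for the strand of the gene and left for the opposite strand. Most red PAC marks lie close to the median of -119, and blue RRPE marks are mostly to their left, near -141.

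Other gene lists showed how far these features were shared. The 32 other 60S assembly genes had a median of 6.53 log2 mean CPM per kb, PAC in 24 (75%), RRPE in 11 (34.4%) and a pair within 50 bases in 6 (18.8%). The 66 genes for 40S assembly had a median of 6.56, PAC in 60 (90.9%), RRPE in 43 (65.2%) and a close pair in 40 (60.6%). The 40S assembly genes thus resembled the 60S members in both cores. The 81 genes for proteins of the large subunit itself were different in level and sequence, with a median of 10.80, PAC in 8 (9.88%), RRPE in 4 (4.94%) and no close pair. None of these differences between lists was tested.

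**Figure D4:**
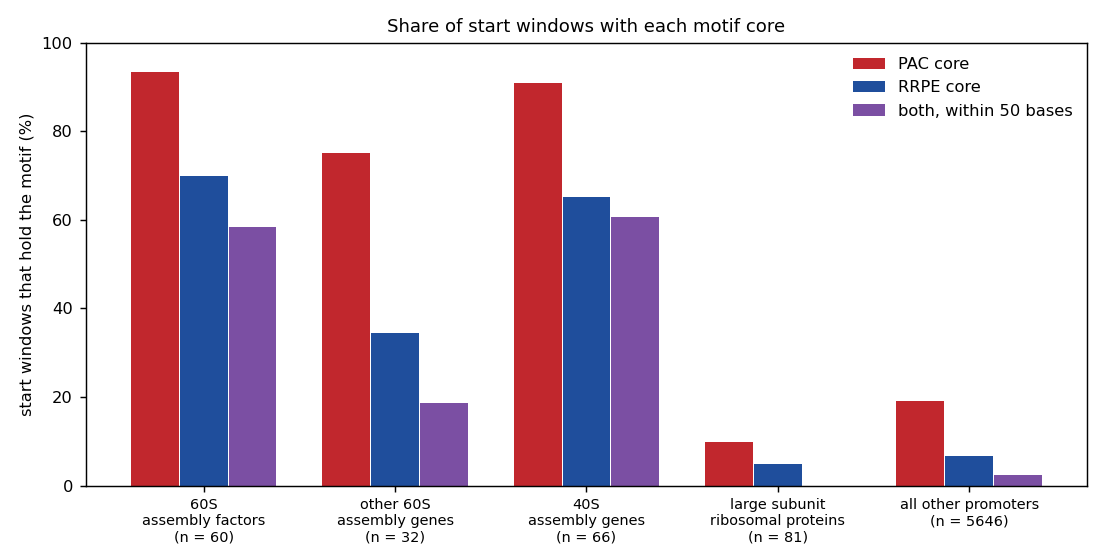
Bars give the percentage of start windows in each gene list that held the PAC core (red), the RRPE core (blue) or both within 50 bases (purple). The 60S and 40S assembly lists reach 93.3% and 90.9% for PAC, while ribosomal protein genes, at 9.88%, stay below the 19.1% of all other windows.

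Members with both cores had a higher median level per kb than members with 1 of them. The median was 7.27 log2 mean CPM per kb in the 38 members with both, 6.52 in the 18 with PAC alone and 6.39 in the 4 with RRPE alone. The ranges overlapped, since MDN1, the lowest member, had both cores and NOP16 (8.10) had PAC alone. Coding length, with which level per kb went down, was not taken into account here. MDN1, the longest member, had both cores, whereas URB1 and URB2, the next longest, had PAC alone. Among all other genes the medians were 6.58 with both cores (176 genes), 5.83 with PAC alone (903), 6.91 with RRPE alone (196) and 5.80 with neither (4371). The medians for a single core in the members rest on few genes and lie close together, so their order is not established.

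The 60 genes were spread over 15 of the chromosomes, with none on chromosome IX, and 59 had a single coding exon. Upstream of the start, 30 faced a gene on the opposite strand and 30 followed a gene on the same strand, with a median gap of 326 bp. In 9 members the gap was shorter than the 250 bases searched, so their windows reach into a neighbouring gene. A direct neighbour on 1 of the assembly lists was found for 8 members (13.3%) and for 5.19% of the 5548 genes off the lists. NSA2 and LCP5, a 40S assembly gene, were divergent with 301 bp between them. NOG2 with ESF2, RSA3 with UTP13, NMD3 with DBP8, NOC3 with CMS1 and RIX1 with UTP9 lay in tandem, and RRP15 with NOC4 and RIX7 with GRC3 were convergent.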

How the data were processed

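RNA-Seq was made from 3 heat shock and 3 optimal growth libraries. Per the paper's methods, the authors aligned reads with kalign to the repeat-masked R64 genome and compared the treatments with edgeR as run by Trinity. Picard is also named in the submitters' processing notes. The counter, its use of strand, its treatment of reads matching several genes, the filter on low counts and the edgeR version were not given in the sources used here. The deposited log2 mean CPM, 1 value per feature over all libraries, was used as the authors made it. The authors' log2 fold changes, p-values and FDR in the same table are their own comparison and were not used, so no test was run.

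IDs were matched to the RefSeq annotation of R64 (5715 by locus tag, 76 by symbol, 2 not matched). Levels per kb are log2 of mean CPM per 1000 bases of coding length. Windows of 300 bases were searched on both strands for each core (Python 3.11.15, numpy 2.4.6, pandas 2.3.3). The search found a single core planted in simulated windows, whose other letters could not form a core. That check did not cover overlapping cores, sites that match on both strands or the cutting of windows from the genome. Values are printed for all members by step of assembly, with the 5 highest and 5 lowest in full. The members, gene lists and motifs were chosen with earlier results of these data known. Alternatives covered the features compared, a filter on low values, means, whole gene length, other motif lengths, the window and the strand.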

Additional observations from a re-analysis of the deposited data

How the results depend on the processing

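The alternatives for the levels were 6 in number. Every member passed the limit to protein-coding genes and the filter that kept log2 mean CPM values from 1 upwards, so these could move only the value over all features, to 6.29 and 6.30, and say nothing about the stability of the members' 7.44. The mean in place of the median gave 7.43, against 6.15 over all features. Per kb, the filter likewise left the members at 7.04, against 5.91, and the mean gave 6.89, against 6.01. Whole gene length gave 7.04, against 5.86. Among the members it differs from coding length only at NOG2, so it too says little about the stability of their median. The motif counts depended on the definition. With the longer PAC motif GCGATGAG the count was 36 members, against 4.12% of all windows. On the strand of the gene alone it was 37 for PAC, against 11.3%, and 26 for RRPE, against 4.50%. With the 250 bases before the start alone it was 55 for PAC, against 16.6%, because the match of IPI3 lies in its coding sequence. For RRPE that window gave 42, against 7.03%. The shorter AAAATTTT gave 48, against 9.25%.

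No paired analysis was possible because replicate numbers have no values to join: each gene has 1 mean over the libraries. DESeq2, the replicate block and leaving out each replicate were planned for counts per library and were not run. Depth, and with it the counting error of each level, is unknown here. The mean also mixes both temperatures, so a level does not describe either one.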
